A study of Rattus norvegicus with 8 samples.

Results

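Of the 26334 gene names on the rat array outside its control spots, 8 that belong to cholesterol synthesis and lipid efflux are described here, taken by name: Hmgcs1, Sqle, Idi1, Fdft1, Lss, Dhcr7, Insig1 and Abca1. Each of the 8 was read by 1 probe in 1 spot, and each passed the spot filter, as did 16307 genes in all. The RNA came from the retinas of female Lister Hooded rats, 8 weeks old, anesthetized with xylazine and ketamine. In the ONC group (4 retinas), the right optic nerve was crushed with forceps for 10 s, 3 mm behind the optic disc. In the sham-operated CTR group (4 retinas), the nerve was exposed in the same way without closing the forceps. All retinas were collected 2 weeks after surgery and profiled one by one on 4 two-color arrays of 1 slide, each array holding a retina in its Cy3 and another in its Cy5 channel.

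Cells build cholesterol from acetyl-CoA through the mevalonate pathway, which leads to squalene, then to lanosterol, and finally to cholesterol. The transcription factor SREBP2 switches on most genes of this pathway when membrane sterols are scarce, and INSIG proteins hold SREBP in the endoplasmic reticulum when sterols are plentiful. Surplus cholesterol is exported to lipoproteins by transporters such as ABCA1, whose gene is a target of the oxysterol receptors LXR. In the retina, Müller glia and the other cells make cholesterol locally, and the blood supplies a share of it.

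By the labels, an array carries a CTR retina in Cy5 (red) and the ONC retina with the matching number in Cy3 (green), and since this holds for all 4 arrays the dye and the condition cannot be told apart. According to the methods, the 2 retinas of an array came from a single group. The labels were used, and a name such as CTR2 stands below for the channel labeled CTR2. Markers of retinal ganglion cells (RGC), the neurons whose axons form the optic nerve, did not follow these labels. Over the 12 RGC markers that passed the filter, the median departure from the gene's mean over the 8 channels (log2 scale) was -1.50 in CTR1, -0.98 in CTR3, -0.88 in CTR4 and -1.18 in ONC4. It was 1.12 in CTR2, 1.08 in ONC1, 1.13 in ONC2 and 1.28 in ONC3. CTR2 therefore stood with 3 of the ONC channels and ONC4 with 3 of the CTR channels. Between the labels, 11 of the 12 markers had a positive log2 fold change (ONC minus CTR), and its median over the list was 1.16. This direction is opposite to the one that the study gives for RGC markers. Every direction below is one between labels. In RNA from whole retinas, fewer cells of a type and less RNA per cell cannot be told apart.

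The signal of the synthesis genes stood well clear of the local background. The foreground of Hmgcs1 was 323.4 to 817.4 times the background over the 8 channels, and that of Dhcr7 was 11.6 to 43.9 times its own. Abca1 lay much nearer to the background, at 3.79 to 5.31 times. The scanner software marked all 8 genes as well above background in all 8 channels, and no spot was saturated. Levels are given as log2 of the normalized signal relative to the median spot of the channel, and are compared between channels for 1 gene at a time.

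Hmgcs1 encodes the cytosolic HMG-CoA synthase, which acts near the head of the pathway. Its probe lies on rn4 chr2:51754514-51754573. The level of Hmgcs1 was 3.95, 4.29, 3.81 and 4.19 in channels CTR1 through CTR4, against 4.73, 4.53, 4.77 and 4.33 in ONC1 through ONC4. All ONC channels lay above all CTR channels, although the lowest ONC channel, ONC4, was barely above the highest CTR channel, CTR2. The means were 4.06 ± 0.22 (SD, n = 4) in CTR and 4.59 ± 0.20 (SD, n = 4) in ONC. The log2 fold change was 0.53 with a standard error of 0.14 and a 95% interval from 0.22 to 0.84. The adjusted p of limma was 0.0960 (0.0798 with the array as a block), so Hmgcs1 was not called. Within the arrays, ONC exceeded CTR by 0.78 on array 1 and 0.96 on array 3, but by only 0.24 on array 2 and 0.14 on array 4. Arrays 1 and 3 are those on which the ONC channel was high and the CTR channel low in RGC markers, while both channels of array 2 were high and both of array 4 low. The part of the RGC markers in this difference was not tested.

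Sqle encodes squalene epoxidase, which adds the first oxygen to squalene and is a control point of the sterol branch. Its probe lies on rn4 chr7:96111693-96111752. The level of Sqle was 1.83, 1.83, 1.66 and 2.09 in channels CTR1 through CTR4, against 2.46, 2.41, 2.49 and 2.22 in ONC1 through ONC4. The groups did not overlap, and ONC1, ONC2 and ONC3 lay close together above ONC4. The CTR mean was 1.85 ± 0.18 (SD, n = 4) and the ONC mean 2.39 ± 0.12 (SD, n = 4), a log2 fold change of 0.54 with a standard error of 0.11 and a 95% interval from 0.29 to 0.79. The adjusted p of limma was 0.0623 without a block. With the array as a block it was 0.0496, at which Sqle was called, higher in ONC on 4 of 4 arrays. The block did not lower the unadjusted p of limma for Sqle, which was 0.00088 without it and 0.0037 with it. The number of genes called overall was 81 without the block and 1254 with it. The differences within arrays were 0.62, 0.57, 0.84 and 0.13 on arrays 1 to 4. On array 2, where both channels were high in RGC markers, Sqle differed by 0.57, and CTR2 was as low as CTR1. On array 4, where both channels were low in these markers, it differed by 0.13. On arrays 1 and 3, where ONC was high and CTR low in them, it differed by 0.62 and 0.84. The part of the RGC markers was not tested.

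Idi1 encodes an isomerase that interconverts the isoprenoid units from which squalene is assembled. Its probe lies on rn4 chr17:72557223-72557282. The level of Idi1 was 1.26, 1.75, 1.50 and 1.63 in channels CTR1 through CTR4, against 2.02, 1.83, 1.98 and 1.69 in ONC1 through ONC4. The groups overlapped, since CTR2 exceeded ONC4. The 4 highest channels were ONC1, ONC3, ONC2 and CTR2, the same channels that were high in RGC markers. The part of those markers was not tested. The mean was 1.53 ± 0.21 (SD, n = 4) in CTR and 1.88 ± 0.15 (SD, n = 4) in ONC. The log2 fold change was 0.35 (standard error 0.12, 95% interval 0.067 to 0.63), and the adjusted p of limma was 0.182, so Idi1 was not called. ONC exceeded CTR by 0.76, 0.084, 0.48 and 0.065 on arrays 1 to 4, again most on arrays 1 and 3.

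**Figure D1:**
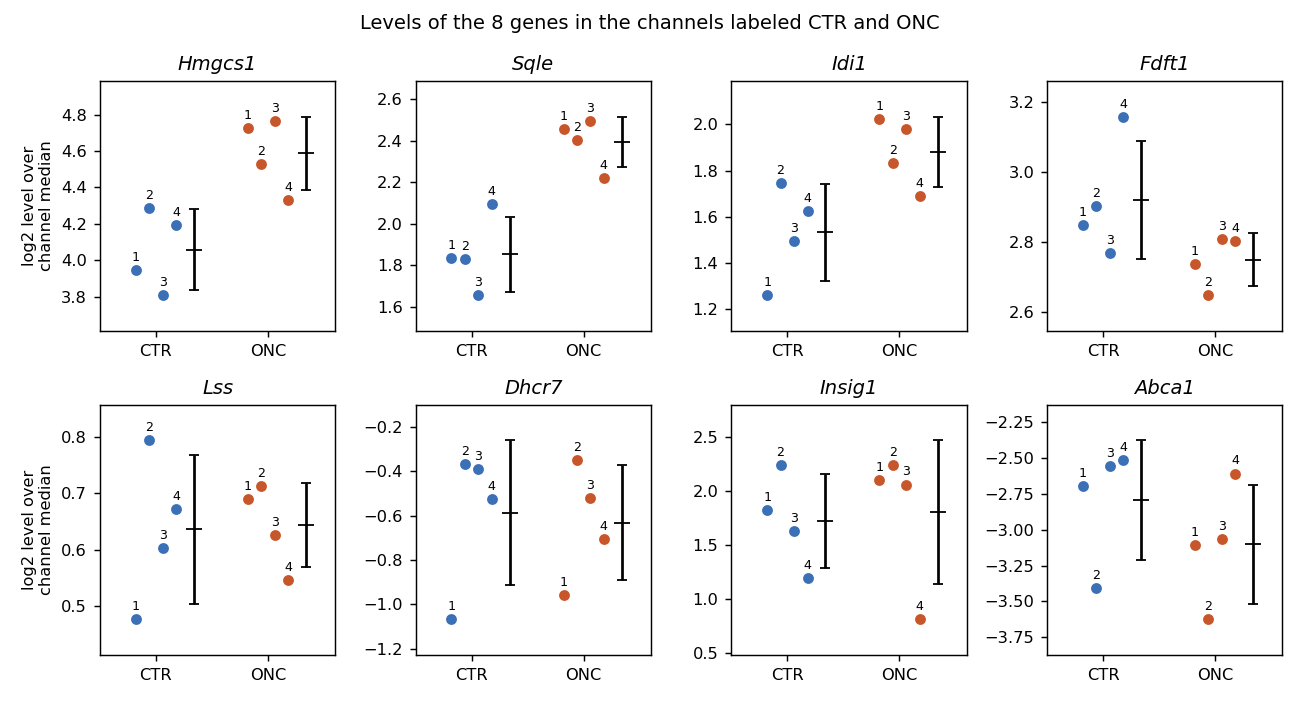
Levels of the 8 genes, one panel per gene with its own vertical axis (log2 level over the channel median). Points are single channels with their replicate number, CTR in blue and ONC in orange, and the black bars give mean ± SD (n = 4). Hmgcs1 and Sqle are the genes whose ONC channels all lie above their CTR channels, and ONC4 is the lowest ONC channel in both.

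Hmgcs1, Sqle and Idi1 varied together over the 8 channels. Pearson's r was 0.93 for Hmgcs1 with Sqle, 0.93 for Hmgcs1 with Idi1 and 0.81 for Sqle with Idi1, each over 8 channels that share arrays and groups and therefore given as a description. Their promoters are shown because these genes moved together. RefSeq windows (GRCr8, another assembly than that of the array) were matched for 6 of the 8 genes, Sqle and Fdft1 having none here, and the 250 bases before the start are printed for Hmgcs1 (chr2:53382054-53382303, plus strand) and Idi1 (chr17:66547525-66547774, minus strand). Capitals mark, on either strand, matches to CCAAT (NF-Y, read as ATTGG on the other strand) and GGGCGG (Sp1, read as CCGCCC).
Hmgcs1: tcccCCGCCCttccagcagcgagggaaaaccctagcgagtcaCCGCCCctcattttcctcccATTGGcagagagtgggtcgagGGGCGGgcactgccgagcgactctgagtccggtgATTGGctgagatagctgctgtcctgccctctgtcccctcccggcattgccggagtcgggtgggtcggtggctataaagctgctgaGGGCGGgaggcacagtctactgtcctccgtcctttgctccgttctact
Idi1: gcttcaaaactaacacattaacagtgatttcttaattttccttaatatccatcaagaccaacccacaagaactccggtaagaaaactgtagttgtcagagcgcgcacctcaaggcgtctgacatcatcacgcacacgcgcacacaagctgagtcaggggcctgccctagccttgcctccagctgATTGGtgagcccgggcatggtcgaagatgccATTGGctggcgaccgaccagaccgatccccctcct
Each of these windows holds 2 CCAAT boxes, both in the ATTGG reading. Those of Hmgcs1 begin 188 and 133 bases before the start, and those of Idi1 begin 66 and 35 bases before it. Hmgcs1 has 4 Sp1 boxes, and Idi1 has no match to that motif. Over the windows of 300 bases of the 6 matched genes, CCAAT was found in 4 (Hmgcs1, Idi1, Lss and Insig1), against 37.5% of 33469 windows in RefSeq, and GGGCGG in 5, against 33.1%. CACGTG (E-box) was found in 2, Insig1 and Abca1, against 6.42%. The sterol regulatory element, searched as TCACNCCAC, had no match in the 6 windows and was found in 1.12% of all windows. Of the other cholesterol synthesis enzymes, 12 had windows. CCAAT was found in 10 of these 12, GGGCGG in 10, CACGTG in 1 and TCACNCCAC in 0. These matches describe letters and not bound sites.

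Fdft1, Lss and Dhcr7 belong to the same pathway as the genes above, and none of them was called. Fdft1 encodes squalene synthase, which commits isoprenoids to sterols, and its probe lies on rn4 chr15:42425389-42425448. The level of Fdft1 was 2.85, 2.90, 2.77 and 3.16 in channels CTR1 through CTR4, against 2.74, 2.65, 2.81 and 2.80 in ONC1 through ONC4. CTR4 stood above the rest, and CTR3 lay within the range of the ONC channels. The log2 fold change was -0.17 with a 95% interval from -0.40 to 0.058 (limma, adjusted p = 0.410), negative on arrays 1, 2 and 4 and 0.040 on array 3, and it was -0.091 without CTR4. Thus Fdft1, which directly precedes Sqle in the pathway, had an estimate of the opposite sign.

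Lss encodes lanosterol synthase, which closes the sterol rings (probe on rn4 chr20:12507646-12507705). The level of Lss was 0.48, 0.79, 0.60 and 0.67 in channels CTR1 through CTR4, against 0.69, 0.71, 0.63 and 0.55 in ONC1 through ONC4. The ONC channels lay inside the range of the CTR channels. The log2 fold change was 0.0077 with a 95% interval from -0.20 to 0.21 (limma, adjusted p = 0.975), an estimate whose sign changed with the processing.

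Dhcr7 encodes the reductase of the last step of one route to cholesterol (probe on rn4 chr1:204258565-204258624). The level of Dhcr7 was -1.07, -0.37, -0.39 and -0.52 in channels CTR1 through CTR4, against -0.96, -0.35, -0.52 and -0.70 in ONC1 through ONC4. Array 1 was low in both of its channels, and the groups overlapped throughout. The log2 fold change was -0.045 with a 95% interval from -0.46 to 0.37 (limma, adjusted p = 0.926), and its sign also changed with the processing. The differences within arrays were 0.11, 0.018, -0.13 and -0.18 on arrays 1 to 4, much closer together than the channels themselves.

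Insig1 encodes the membrane protein that retains SREBP, and its gene is itself a target of SREBP (probe on rn4 chr4:2578292-2578348). The level of Insig1 was 1.82, 2.24, 1.63 and 1.19 in channels CTR1 through CTR4, against 2.09, 2.24, 2.06 and 0.81 in ONC1 through ONC4. Array 4 held the lowest level of either group, and ONC4 was far below the other ONC channels. CTR2 and ONC2, which share array 2, were nearly equal. The mean was 1.72 ± 0.44 (SD, n = 4) in CTR and 1.80 ± 0.67 (SD, n = 4) in ONC, with a log2 fold change of 0.080 and a 95% interval from -0.67 to 0.83 (limma, adjusted p = 0.928). Without ONC4 the log2 fold change was 0.41, and without CTR4 it was -0.096, so that its sign depended on single retinas, and it was called in neither case. The channels high in RGC markers, CTR2, ONC2, ONC1 and ONC3, all lay above CTR1, CTR3, CTR4 and ONC4 for Insig1. The part of those markers was not tested.

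Abca1, the only exporter of the 8, encodes the transporter that passes cholesterol and phospholipid to apolipoproteins (probe on rn4 chr5:70493613-70493672). The level of Abca1 was -2.70, -3.41, -2.55 and -2.52 in channels CTR1 through CTR4, against -3.11, -3.62, -3.07 and -2.61 in ONC1 through ONC4. The 4 highest channels were CTR4, CTR3, ONC4 and CTR1, the same channels that were low in RGC markers, and the part of those markers was not tested. The mean was -2.79 ± 0.42 (SD, n = 4) in CTR and -3.10 ± 0.42 (SD, n = 4) in ONC, with a log2 fold change of -0.31 and a 95% interval from -0.87 to 0.26 (limma, adjusted p = 0.562). ONC was lower than CTR on 4 of 4 arrays, with differences of -0.41, -0.22, -0.51 and -0.091. With the array as a block the adjusted p of limma was 0.0804, and the gene was not called in either fit. Its size rested in part on single retinas, being -0.51 without CTR2, -0.47 without ONC4 and -0.13 without ONC2. The estimate turned to 0.099 when the channels were scaled to their medians without loess, so that the direction of this dim spot depends on the dye correction. The 250 bases before the start of Abca1 (GRCr8 chr5:72596474-72596723, minus strand, RefSeq) are shown for comparison with the synthesis genes, with matches to GGGCGG and CACGTG in capitals.
Abca1: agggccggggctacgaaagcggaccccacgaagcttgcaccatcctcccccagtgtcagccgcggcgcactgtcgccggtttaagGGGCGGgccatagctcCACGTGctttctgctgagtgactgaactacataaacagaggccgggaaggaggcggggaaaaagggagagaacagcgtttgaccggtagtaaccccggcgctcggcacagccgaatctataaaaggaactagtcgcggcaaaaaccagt
The window of Abca1 has 1 match to each of these motifs, 165 and 149 bases before the start, and no CCAAT box.

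**Figure D2:**
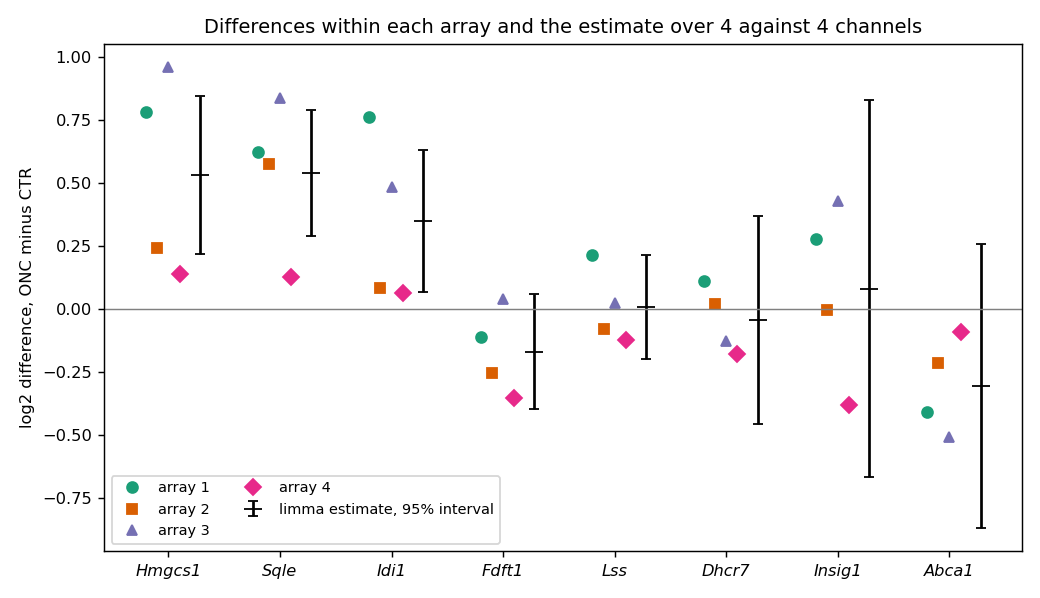
Log2 difference of ONC minus CTR on each of the 4 arrays (colored symbols) for the 8 genes, with the limma estimate over 4 against 4 channels and its 95% interval (black). Hmgcs1, Sqle and Idi1 lie above 0 and Abca1 below 0 on all 4 arrays, and for Hmgcs1 and Idi1 arrays 1 and 3 differ most.

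Taken by the calls of limma at an adjusted p under 0.05, 0 of the 8 genes were called, against 81 of 16307 genes or 0.497%. Of these 81 genes, 38 (46.9%) were higher in ONC, a share that became 71.0% of 3194 calls without loess. With the array as a block, 1 of the 8 (Sqle) was called, against 1254 genes or 7.69%. At an unadjusted p under 0.05, limma found 3 of the 8 (Hmgcs1, Sqle and Idi1), against 3025 genes or 18.6%. The ONC channels all lay above the CTR channels in 2 of the 8, against 940 genes or 5.76%. In none of the 8 did they all lie below, as they did for 1129 of 16307 genes. ONC exceeded CTR on all 4 arrays in 3 of the 8, against 2970 genes or 18.2%. It lay below CTR on all 4 in 1 of the 8 (Abca1), against 3456 of 16307 genes. The median log2 fold change was 0.044 over the 8 genes, 5 of them positive and 3 negative, and -0.013 over all genes. The 8 genes therefore did not move as a block: 3 enzymes were at 0.35 to 0.54, and the others at -0.31 to 0.080.

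The spread among retinas of a group differed between the 8 genes. It was measured by the relative expression variability (REV) of the methods, a corrected coefficient of variation in percent. Lss was the most even of the 8, with an REV of 11.0% in ONC and 19.8% in CTR, and Fdft1 came next in ONC after an REV of 26.1% in CTR. Insig1 and Abca1 varied most, with REV of 64.4% and 53.7% in CTR and 77.1% and 60.8% in ONC. The latter were the genes of the 8 with a higher REV in ONC than in CTR (2 of 8, against 41.5% of all genes). The median REV of the 8 was 31.4% in CTR and 25.6% in ONC, beside 25.1% and 21.7% over all genes. With REV, the fold that the methods ask for was 1.46 for Sqle and 1.62 for Hmgcs1, and their linear folds of 1.45 and 1.44 stayed below it.

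**Figure D3:**
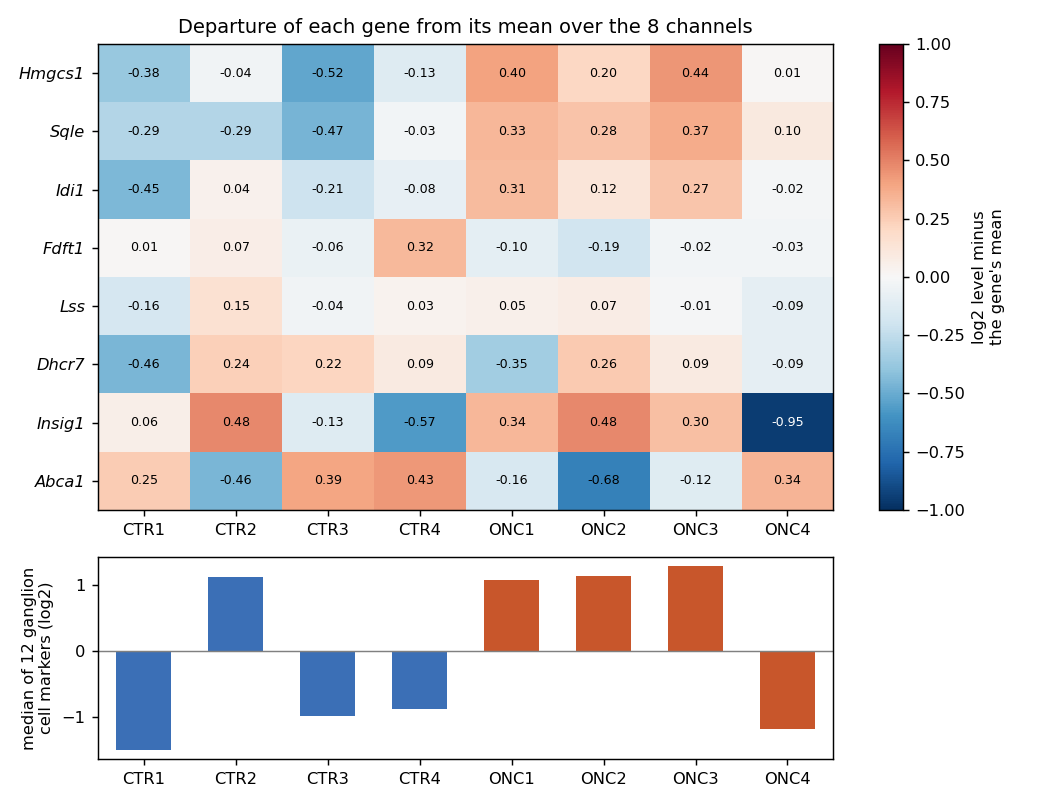
Upper panel, log2 level of each of the 8 genes less its mean over the 8 channels (red above, blue below the mean, values printed in the cells). Lower panel, median of the same quantity over the 12 RGC markers, which is above 0 in CTR2, ONC1, ONC2 and ONC3. In the upper panel, Insig1 in ONC4, at -0.95, is the largest departure.

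The mean profile of the 6 synthesis enzymes (mean of their centered log2 levels) was lowest in CTR1, at -0.29, and CTR3, at -0.18, and highest in ONC3, at 0.19. The genes outside the 8 whose levels followed this profile most closely over the 8 channels were Nrip3 (Pearson's r = 0.99), Cast (0.98), LOC103691908 (0.98), Pcf11 (0.97) and Elovl6 (0.97). Elovl6 encodes an elongase of fatty acids, another lipid pathway under SREBP, and Cast the calpain inhibitor calpastatin. These values describe 8 channels and 16307 genes, among which some high values of r always occur.

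The other enzymes of cholesterol synthesis, 15 genes that all passed the filter, included none called by limma in either fit, with 10 estimates positive and 5 negative and a median log2 fold change of 0.054. Those with an unadjusted p under 0.05 were 2, both higher in ONC. Acat2, which makes acetoacetyl-CoA for HMG-CoA synthase, was at 0.29 (limma, adjusted p = 0.134) and higher in ONC on 4 of 4 arrays, but at 0.060 when the signals as processed by the scanner program were used (limma, adjusted p = 0.817). Cyp51, the demethylase of lanosterol, was at 0.31 (limma, adjusted p = 0.152). Its levels were highest in ONC2, ONC3, ONC1 and CTR2, the channels high in RGC markers, whose part was not tested. Mvd, which forms isopentenyl diphosphate, was at -0.11, and Fdps, which makes farnesyl diphosphate for Fdft1, at 0.16 (0.038 in the processed signals, 0.073 by its brightest probe), and neither was called. Estimates of opposite sign thus stood next to each other within the pathway, those of Mvd and Idi1 among them. The sign of Mvd was not stable, however, being 0.0096 without ONC4 and 0.022 with CTR2, CTR4, ONC1 and ONC3 alone.

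Among the genes of sterol sensing and uptake, 11 of 15 passed the filter. The median of the 11 was -0.028, with 4 positive and 7 negative. Npc2, which carries cholesterol out of lysosomes, was 0.90, 0.79, 1.21 and 1.45 in CTR1 through CTR4, and 0.35, 0.33, 0.38 and 0.67 in ONC1 through ONC4. All ONC channels of Npc2 lay below all CTR channels. Its log2 fold change was -0.65 with an adjusted p of limma of 0.0824, and 0.0290 with the array as a block, at which it was called, lower in ONC on 4 of 4 arrays. Srebf2, which encodes the main activator of cholesterol synthesis, was at 0.35 (limma, adjusted p = 0.149). Its levels were highest in ONC1, ONC2, ONC3 and CTR2, the channels high in RGC markers, whose part was not tested. Srebf1, whose product acts mostly on fatty acid synthesis, was at -0.32 (limma, adjusted p = 0.174), and Insig2 at -0.17 (limma, adjusted p = 0.266). The related factors Srebf1 and Srebf2 thus had estimates of opposite sign, each the same way on 4 of 4 arrays, and neither was called.

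Of the 16 genes of efflux and LXR signaling, all passed the filter, 5 estimates were positive and 11 negative, and the median was -0.067. Nr1h3, which encodes LXR alpha, was at -0.44 (limma, adjusted p = 0.132) and lower in ONC on 4 of 4 arrays, as Abca1 was. Nr1h2, which encodes LXR beta, was at 0.012. Abca7, a transporter related to Abca1, was at -0.29 (limma, adjusted p = 0.261), Abcg1, an exporter to lipoproteins, at 0.19, and Apoe, the main lipid carrier of neural tissue, at -0.099. None of these 5 was called. Some of these sizes did not hold, as Abcg1 was 0.051 without ONC4 and Apoe ran from -0.24 to -0.022 with 1 retina left out. Without loess Apoe was -0.48 and Abcg1 0.052, and Abca7 was -0.12 in the processed signals. Cyp46a1, which hydroxylates cholesterol in neurons for removal, was -1.79, -2.73, -1.95 and -1.97 in CTR1 through CTR4, and -1.59, -2.32, -1.63 and -1.66 in ONC1 through ONC4. Array 2 was low in both of its channels for Cyp46a1. Its log2 fold change of 0.31 had an adjusted p of limma of 0.523, and 0.0460 with the array as a block, at which it was called, higher in ONC on 4 of 4 arrays. Without CTR2 the log2 fold change of Cyp46a1 was 0.11, without ONC2 it was 0.49, and with CTR2, CTR4, ONC1 and ONC3 alone it was 0.74, and it was called in none of these.

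In fatty acid synthesis, which SREBP also controls, 8 of 10 genes passed the filter (Fads2 and Elovl5 did not), 4 estimates were positive and 4 negative, and the median was 0.10. Scd1, the desaturase that makes oleic acid, was at 0.38 (limma, adjusted p = 0.183) and was called with the array as a block (limma, adjusted p = 0.0484), higher in ONC on 4 of 4 arrays. Acss2, which makes acetyl-CoA from acetate, was at -0.30 (limma, adjusted p = 0.174), with all ONC channels below all CTR channels. In the 4 lists together, limma called none of 50 genes without the block, and Npc2, Cyp46a1 and Scd1 with it, which is 3 of 50 or 6.0%, beside 7.69% of all genes.

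**Figure D4:**
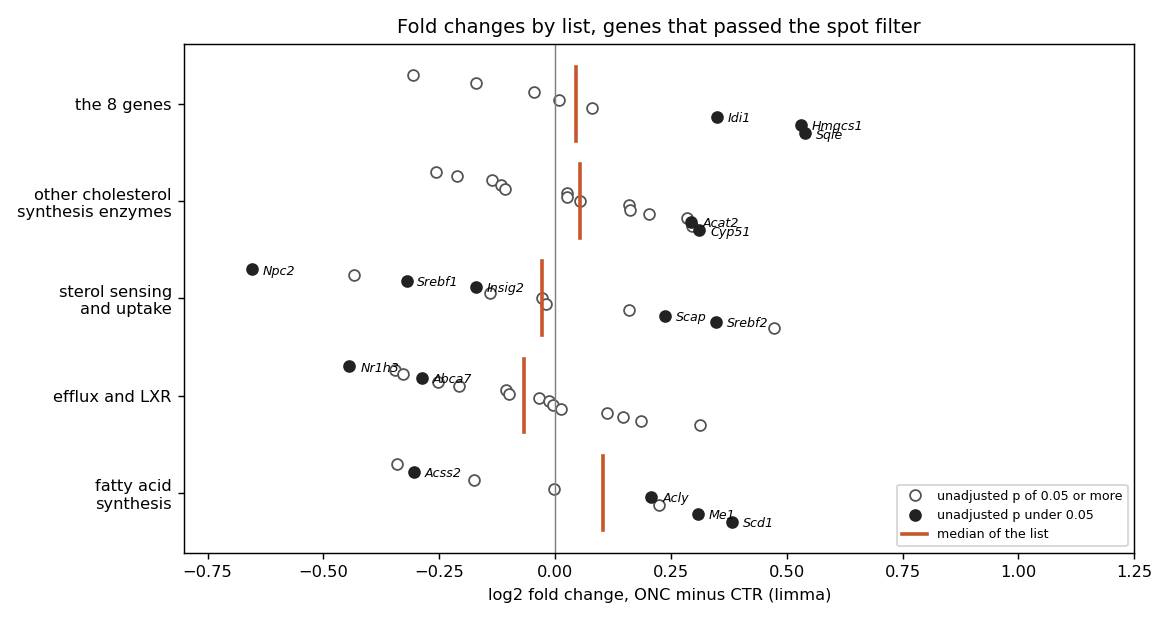
Log2 fold change of ONC minus CTR (limma) for the 8 genes and the 4 other lists, each circle a gene that passed the spot filter. Filled circles with names had an unadjusted p under 0.05, open circles did not, and the orange line is the median of the list, which lies between -0.067 and 0.10.

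The RGC markers were themselves examined as single genes, because the channels of several of the 8 genes were ordered like them. The log2 of their summed linear levels was 3.50, 5.16, 3.73 and 4.04 in channels CTR1 through CTR4, and 5.49, 5.42, 5.54 and 3.92 in ONC1 through ONC4. Sncg, which encodes gamma-synuclein and is the brightest of the list, was at 0.43, 2.56, 0.46 and 0.76 in channels CTR1 through CTR4, against 0.59 in ONC4 and 3.09 to 3.12 in the other ONC channels. It had a log2 fold change of 1.42 (limma, adjusted p = 0.294) and was not called. Isl1, a transcription factor of RGC and of some other retinal neurons, was the only marker that limma called, although no gene at all was called when any of 7 of the 8 retinas was left out. Its level was 0.79, 0.91, 0.73 and 0.98 in channels CTR1 through CTR4, and 1.51, 1.49, 1.49 and 1.48 in ONC1 through ONC4. Its log2 fold change was 0.64 (limma, adjusted p = 0.0418), higher in ONC on 4 of 4 arrays. Tubb3, the tubulin of neurons, also had all ONC channels above all CTR channels, with a log2 fold change of 1.16, and was not called (limma, adjusted p = 0.0575). Isl1 and Tubb3 thus followed the labels, while the sum over the list did not. Pou4f1 was not found by name in the files, and Pou4f3 did not pass the filter.

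**Figure D5:**
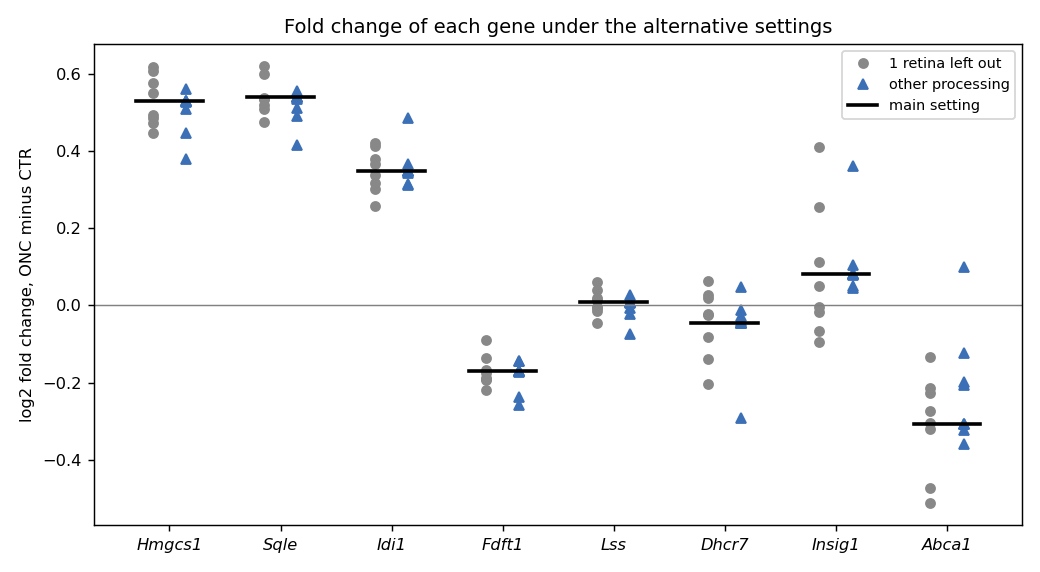
Log2 fold change of ONC minus CTR for each of the 8 genes in the main setting (black line), with 1 retina left out (gray circles) and under the other processing alternatives (blue triangles). Hmgcs1, Sqle and Idi1 stay above 0 and Fdft1 below 0 throughout, while Lss, Dhcr7, Insig1 and Abca1 cross 0.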

How the data were processed

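RNA from 4 CTR and 4 ONC retinas was hybridized in pairs to 4 two-color Agilent rat arrays of 1 slide. Spot by spot, the authors deposited intensity values from Feature Extraction (version 12.0.3.1 per the file headers, 11.1.19.1 per the submitters' processing notes): mean foreground, median local background and a processed signal, dye-normalized by the software with LOWESS. Of each file, 69 other columns of values were not used. Median foreground was 446.6 to 626.0 in the CTR and 218.1 to 494.7 in the ONC channels, over backgrounds of 55.0 to 56.5 and 26.0 to 29.5. The number of arrays limits precision.

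Of 44254 spots, controls (1377) were dropped, as were spots flagged as outliers or dimmer than 2 times the background in at least 1 channel, leaving 27371 spots (18599 probes, 16307 genes). After background subtraction came loess within arrays and centering of channels on their medians, and log2 values were averaged by probe and then by gene. The unpaired comparison of ONC with CTR, after the methods, used limma 3.58.1 (R 4.3.3) through lmFit and eBayes, with two-sided p adjusted over all genes by Benjamini-Hochberg and a threshold of 0.05. Adjusted p of genes are from this tool unless the methods' own test is named, and the fit was checked on simulated data. Samples of the same number share an array by the labels, and their deviations from the group means correlated at 0.15, 0.55, 0.40 and 0.49 over all genes, so the fit with the array as a block is given wherever it changes a call.

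The genes and lists were chosen with earlier results of these data known. Named beside the 8 genes were Mvd, Fdps, Cyp51, Srebf1, Srebf2, Insig2, Abcg1, Apoe, Nr1h2, Nr1h3 and Cyp46a1, in each pathway list any gene called with or without the block and the 2 of smallest unadjusted p, the 5 genes most like the synthesis profile, and of each cell type list the gene of highest mean processed signal and any called gene. Some genes that this rule covers are not reported here. Scd is named Scd1 in the files. Promoters and synonyms are from RefSeq (GRCr8), and probe positions from the array design (rn4). Alternatives covered normalization, background correction, the filter, probes, the block, the methods' own test and criterion, the 4 channels to which both sources assign a common dye, and leaving out each retina.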

Additional observations from a re-analysis of the deposited data

Results flagged for a closer look

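In 7 of the 52 groups of 4 channels examined (the 8 genes and the 18 named pathway genes that passed the filter, each in CTR and in ONC), 1 channel stood far from the other 3, its gap to the nearest, as a share of the range, exceeding the 95% critical value of Dixon's test for 4 samples. The nominal rate of the test is about 1 group in 20. The share of such groups over all genes was not determined, so the count is not read as particular to these genes. Insig1 was 0.81 in ONC4, with ONC1, ONC2 and ONC3 at 2.06 to 2.24, and Srebf2, the activator of its gene, was 2.88 in ONC4, against 3.20 to 3.24. Npc2 was higher in ONC4, at 0.67, than in the other ONC channels, at 0.33 to 0.38. ONC4 is also the ONC channel that was low in RGC markers, and the part of those markers was not tested. Abca7 was -0.01 in CTR4, against 0.38 to 0.44, and Mvd was 1.98 in CTR4, against 2.26 to 2.31. Cyp51 was 1.02 in CTR2, with CTR1, CTR3 and CTR4 at 0.80 to 0.83. CTR2 is the CTR channel that was high in RGC markers, whose part was not tested here either. Cyp46a1 was -2.32 in ONC2, with ONC1, ONC3 and ONC4 at -1.66 to -1.59.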

How the results depend on the processing

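The log2 fold changes of Hmgcs1 (0.38 to 0.62), Sqle (0.42 to 0.62), Idi1 (0.26 to 0.48) and Fdft1 (-0.26 to -0.091) kept their sign in all 17 alternatives that give one. Adjusted p of limma ran from 0.0798 to 0.428 for Hmgcs1 and from 0.0229 to 0.387 for Sqle, which was called without loess (0.0229), with Aquantile (0.0440) and with the replicate block (0.0496), so 1 of the 8 genes was called in each of these. Of 441 values for 26 named genes, 407 kept sign and side of the threshold and 25 changed sign, none of them called. Without loess, Srebf1 (-0.39) and Npc2 (-0.67) were called as well. The cause was not tested for any change given here.

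The number of genes called by limma moved from 81 to 3194 without loess, 412 with Aquantile, 14 with normexp, 21 with the processed signals, 123 with spots well above background, 124 with the brightest probe and 1254 with the replicate block. It was 0 with normexp and no filter on dim spots, 2 choices changed at once (1957 genes at an unadjusted p under 0.05) and 0 with CTR2, CTR4, ONC1 and ONC3 alone (1961 genes, and fewer samples). With 1 retina left out it was 0 to 38, 38 without ONC2 and 0 without any of the other 7, while unadjusted p under 0.05 ranged over 2085 to 3252 genes. The split of the calls moved too, 71.4% being higher in ONC with normexp and 57.1% with the processed signals. The methods' t-test at an unadjusted p under 0.05 gave 2778 genes, 3 of them among the 8, then 1 gene after adjustment and 536 with the fold-change threshold, none of the 8 in the latter 2.

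The median of the 8 genes ran from -0.041 to 0.23 with 1 retina left out, 0.23 being the value without ONC4. With 1 retina left out, pathway medians ran from 0.022 to 0.12 (other synthesis enzymes), -0.092 to 0.011 (sensing and uptake), -0.15 to -0.012 (efflux) and 0.051 to 0.17 (fatty acids). In other settings the median of sensing and uptake was 0.054 without loess, -0.12 with the processed signals and -0.0008 with the brightest probe, and that of efflux 0.012 without loess and 0.049 with the 4 channels alone. That of fatty acids was 0.034 with the 4 channels and 0.22 with spots well above background. Without loess, 1, 2 and 1 genes were called in other synthesis enzymes, sensing and uptake, and efflux. With the replicate block, 1 was called in each of sensing and uptake, efflux and fatty acids.

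Signs changed as follows. Without loess, Lss was -0.0079, Abca1 0.099 and Nr1h2 -0.028. With the processed signals, Lss was -0.023, Dhcr7 0.047 and Nr1h2 -0.010. With the 4 channels alone, Lss was -0.075, Mvd 0.022 and Apoe 0.020. With 1 retina left out, Lss ran from -0.046 to 0.061, Dhcr7 from -0.21 to 0.063, Insig1 from -0.096 to 0.41, Mvd from -0.18 to 0.0096 and Nr1h2 from -0.027 to 0.070. Signal over background limits Abca1 most of the 8, and genes that did not pass the filter have no fold change.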

Other observations

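Markers of other retinal cells, whose part in the results was not tested, are given as log2 fold changes of ONC minus CTR by the labels. In the Müller glia list, 3 of 9 measured genes were higher and 6 lower, with a median of -0.23 and Dkk3, the brightest, at -0.19. Slc1a3 (-0.56), Vim (-0.41) and Hes1 (0.69) were called by limma with the array as a block. The median was -0.38 over 10 microglial genes (9 lower, C1qb the brightest at -0.69), -0.31 over 4 astrocyte genes (S100b the brightest at -0.34) and -0.28 over 9 photoreceptor genes (Crx -0.30, called with the block). None of these 4 lists held a gene called without the block.

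Over 6 bipolar genes the median was 0.15 (Pcp2 0.081), over 7 amacrine genes -0.015 (Slc32a1 -0.34, and Slc6a9 -0.41 called with the block), and over 4 pigment epithelium genes 0.23 (Ttr 0.11). It was 0.044 over 5 oligodendrocyte genes (Mag 0.47, and Cnp -0.75 called with the block), 0.12 over 5 endothelial genes (Kdr 0.12) and -0.41 over 5 lens genes (Crygs -0.41). The lens list was uneven among channels, with a median departure of 1.22 in CTR2 and -0.68 in ONC3.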
